A study of Mus musculus with 6 samples.

Results

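Srebf1, Srebf2, Ppara and Acaca were followed in liver mRNA of mice after 16 weeks of high-fat diet (HFD). They were chosen by name, as 3 genes of transcription factors that set hepatic lipid synthesis and oxidation and 1 gene of the enzyme that commits carbon to fatty acids. They are 4 of the 3542 genes in the deposited table, and all 4 names were found. Wild-type Mul1(+/+) mice (n = 3) were compared with Mul1(−/−) mice (n = 3), which lack the mitochondrial E3 ligase MUL1 in the whole body and descend from heterozygous crosses. Both groups received the HFD, and no library from the normal diet was analysed here. The study used both sexes, but the labels give neither the sex nor the age of the animal behind a library. The labels name the tissue as liver and the cell type as hepatocytes, while the protocol describes pieces of whole liver. Nothing in the labels says whether a replicate is 1 animal or a pool, so p-values measure only the spread between these libraries.

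SREBP1 and SREBP2, the products of Srebf1 and Srebf2, are made as membrane proteins of the endoplasmic reticulum. SCAP carries them to the Golgi when sterols are low, proteases there release the active factor, and INSIG proteins hold the complex back. In liver, SREBP1 mainly drives fatty acid and triglyceride synthesis under insulin, and SREBP2 mainly drives cholesterol synthesis and uptake. PPARα, the product of Ppara, binds DNA together with RXRα and switches on fatty acid oxidation. Acaca encodes acetyl-CoA carboxylase ACC1, a target of SREBP1 that makes malonyl-CoA. Malonyl-CoA is the building block of new fatty acids and an inhibitor of CPT1A, the gate for fatty acid entry into mitochondria. A value here is a normalized read count, that is, the reads on a gene divided by 1 factor per library. Differences are log2 fold changes of the count plus 1, Mul1(−/−) minus Mul1(+/+). The p-values come from limma with Benjamini-Hochberg adjustment over all 3542 genes, and a gene was called when its adjusted p was under 0.01 and its absolute log2 fold change above 1.

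Each gene has 1 summed value per library, although several transcripts start at different places. Srebf1 (ENSMUSG00000020538, chr11:60199089-60222581, minus strand of GRCm38) has 12 annotated transcripts in GENCODE M21, and RefSeq (GRCm38.p6) gives it 3 start sites. The 250 bases before each start are shown because the sum cannot separate them. Capitals mark 2 kinds of motif on either strand, the NF-Y box (CCAAT or ATTGG) and the GC box (GGGCGG or CCGCCC), at which general activators are known to bind beside SREBPs.
Srebf1 outermost start, chr11:60222582-60222831: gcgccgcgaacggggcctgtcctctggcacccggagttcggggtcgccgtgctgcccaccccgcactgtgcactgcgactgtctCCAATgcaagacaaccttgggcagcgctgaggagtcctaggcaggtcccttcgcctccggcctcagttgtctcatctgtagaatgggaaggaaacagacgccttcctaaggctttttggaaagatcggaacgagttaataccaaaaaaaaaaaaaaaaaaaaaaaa
Srebf1 middle start, chr11:60220628-60220877: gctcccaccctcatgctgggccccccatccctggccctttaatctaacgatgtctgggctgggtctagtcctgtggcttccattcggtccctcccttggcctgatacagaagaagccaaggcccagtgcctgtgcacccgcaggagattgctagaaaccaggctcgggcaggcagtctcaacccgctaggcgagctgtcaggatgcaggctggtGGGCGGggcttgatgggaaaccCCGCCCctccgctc
Srebf1 innermost start, chr11:60210472-60210721: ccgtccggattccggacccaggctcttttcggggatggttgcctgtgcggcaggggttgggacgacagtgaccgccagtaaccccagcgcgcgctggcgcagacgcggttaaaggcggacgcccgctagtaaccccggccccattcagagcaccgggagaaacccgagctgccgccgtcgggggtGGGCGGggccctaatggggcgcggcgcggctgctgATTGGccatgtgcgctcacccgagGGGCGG
Srebf2 (ENSMUSG00000022463, chr15:82147181-82205379, plus strand) has 7 transcripts and 1 RefSeq start. Of the window before it, the 162 bases that no annotated exon covers are shown.
Srebf2, chr15:82147019-82147180: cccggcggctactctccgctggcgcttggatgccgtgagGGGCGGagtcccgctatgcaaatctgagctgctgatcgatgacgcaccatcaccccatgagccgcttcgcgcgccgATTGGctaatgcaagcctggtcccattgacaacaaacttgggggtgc

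The 3 Srebf1 windows differed in their motifs. The outermost held 1 NF-Y box, the middle one held 2 GC boxes, and the innermost held 2 GC boxes and 1 NF-Y box, which lay 30 to 26 bases before the start. The full 250-base window of Srebf2, exonic bases included, held 4 GC boxes and 1 NF-Y box, of which 1 GC box and the NF-Y box lie in the stretch shown. NF-Y boxes occurred in 33.9% and GC boxes in 32.7% of the 32851 mouse promoter windows of the same length. Exact matches to an E-box (CACGTG, 6.02% of windows), a sterol regulatory element core (TCACNCCAC, 1.05%) and a nuclear receptor half-site (AGGTCA, 14.0%) were also searched on both strands. None was found in the windows of the 4 genes. Sites that differ from these letters were not searched, so a lack of such sites is not shown. The window of Ppara (ENSMUSG00000022383, chr15:85734983-85802819, plus strand, 6 transcripts) held 2 GC boxes over its full length, of which 150 bases are exonic, and it is not shown. For Acaca (ENSMUSG00000020532, chr11:84129672-84401651, plus strand, 9 transcripts) the RefSeq window lies inside the gene, downstream of the first GENCODE start, and held none of the 5 motifs.

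Mul1 itself ranged from 3172 to 3423 normalized counts in the Mul1(+/+) libraries and from 965 to 1753 in the Mul1(−/−) libraries, in the direction of the labels. Its log2 fold change of −1.44 (limma, adjusted p 0.0126) missed the threshold. This fall was close to the median of all lower genes of the table, −1.43. The reads on the listed genes came to between 11932163 and 15385822 per library. The genes of the mitochondrial genome took 10.7% to 13.4% of the table's summed value in the Mul1(+/+) libraries, and 49.4%, 22.8% and 15.4% in Mul1(−/−) replicates 1, 2 and 3. The table is a selection: every gene in it had passed the limits of the authors' own test on these libraries, so a lower or higher mean of a member is no independent evidence. In bulk liver, fewer cells of a type and less RNA per cell cannot be told apart.

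All 4 genes had a lower mean in Mul1(−/−) HFD-liver, at 29.5% to 36.2% of the Mul1(+/+) mean, and Ppara alone was called. For 3 of them, Srebf1, Srebf2 and Ppara, the groups did not overlap, whereas Acaca overlapped in 1 library. Over the table, 7.43% of genes were called lower, and 41.0% had lower groups without overlap. Those without overlap were 1453 of the 1530 genes with a lower mean, so such a gap was usual for a lower gene. An exact two-sided permutation test of 3 against 3 libraries cannot give a p below 0.1, and it gave 0.1 for those 3 genes and 0.2 for Acaca.

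**Figure D1:**
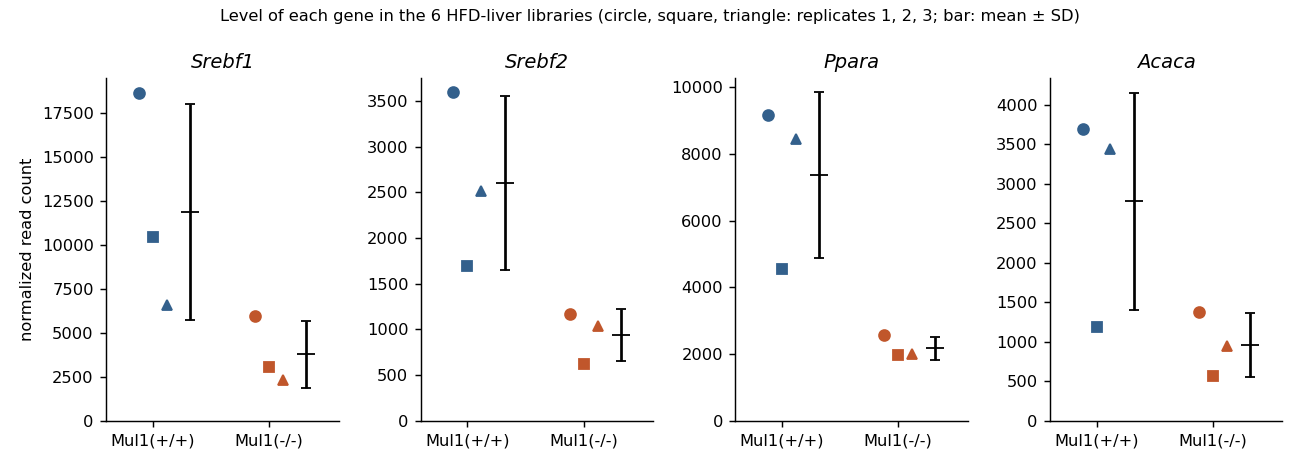
Normalized read count of Srebf1, Srebf2, Ppara and Acaca in each library, with Mul1(+/+) in blue and Mul1(−/−) in orange, symbols for replicates 1 to 3, and the mean ± SD beside the points. The groups are apart for Srebf1, Srebf2 and Ppara, and for Acaca the square of Mul1(+/+) replicate 2 lies below the circle of Mul1(−/−) replicate 1.

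Srebf1, the gene of the main lipogenic SREBP, stood at 18643, 10459.65 and 6595 normalized counts in Mul1(+/+) replicates 1 to 3. In Mul1(−/−) replicates 1 to 3 it stood at 5957, 3047 and 2339. The groups were apart, but the gap was narrow, since Mul1(+/+) replicate 3 lay close above Mul1(−/−) replicate 1. The mean was 11899 ± 6152 (SD, n = 3) against 3781 ± 1918 (SD, n = 3), or 31.8% of the Mul1(+/+) level. The log2 fold change was −1.64 (standard error 0.52, 95% interval −2.79 to −0.49), and limma's adjusted p of 0.0173 missed the threshold. The spread within the groups was wide, with a coefficient of variation of 51.7% in Mul1(+/+) and 50.7% in Mul1(−/−). Among the 2496 genes with a mean of at least 100, 96.1% varied less than Srebf1 within Mul1(+/+) HFD-liver. At least 2488 reads lay behind each Srebf1 value, so the counting error was small beside this spread. Exons of Srebf1 overlap exons of Rai1 on the opposite strand and the microRNA gene Mir6922 on its own strand. Whether the counting used strand is not given in the sources used here, so reads in these stretches may belong to either gene.

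Srebf2, the gene of the sterol-controlled SREBP, was expressed at 3596, 1695 and 2511 normalized counts in Mul1(+/+) replicates 1 to 3. The Mul1(−/−) replicates had 1167, 619.7 and 1038. Every Mul1(−/−) value lay below the lowest Mul1(+/+) value, that of replicate 2. The mean was 2601 ± 954 (SD, n = 3) against 942 ± 286 (SD, n = 3), or 36.2%. The log2 fold change was −1.45 (standard error 0.45, 95% interval −2.44 to −0.45), with an adjusted p of 0.0163 from limma, which missed the threshold. An intron of Srebf2 houses Mir33, a microRNA gene known to restrain cholesterol export, for which no value was analysed here.

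Ppara, the gene of the fasting and fatty acid receptor, fell and was the member with the tightest Mul1(−/−) group. Mul1(+/+) replicates 1 to 3 had 9159.8, 4544 and 8443 normalized counts. The Mul1(−/−) replicates had 2570.2, 1963 and 2002. The highest Mul1(−/−) value lay well below the lowest Mul1(+/+) value. The mean fell from 7382 ± 2484 (SD, n = 3) to 2178 ± 340 (SD, n = 3), or 29.5% of the Mul1(+/+) level. The log2 fold change was −1.71 (standard error 0.42, 95% interval −2.64 to −0.77), and limma's adjusted p was 0.00977, just under the limit. The coefficient of variation was 15.6% in Mul1(−/−) HFD-liver, and 9.86% of the 2496 genes had a smaller one there. The call did not hold in 5 of the 6 fits that left out 1 library: the adjusted p was 0.0450, 0.0240 and 0.0415 without Mul1(+/+) replicates 1, 2 and 3, and 0.0126 and 0.0337 without Mul1(−/−) replicates 1 and 2. Without Mul1(−/−) replicate 3 it was 0.00532.

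Acaca, the gene of ACC1, had 3696, 1194 and 3439.8 normalized counts in Mul1(+/+) replicates 1 to 3. In Mul1(−/−) replicates 1 to 3 the counts were 1382, 572 and 942. Mul1(+/+) replicate 2 lay below Mul1(−/−) replicate 1, so the groups overlapped, while the other Mul1(+/+) libraries lay above all 3 Mul1(−/−) libraries. The mean was 2776 ± 1377 (SD, n = 3) against 965 ± 406 (SD, n = 3), or 34.8%. The log2 fold change was −1.45 (standard error 0.54, 95% interval −2.65 to −0.25), and the adjusted p of 0.0275 from limma missed the threshold. Gm11437 lies within Acaca on the opposite strand without sharing an exon. Its log2 fold change was −1.77 (adjusted p 0.0145 from limma), and intronic reads of Acaca and reads of Gm11437 cannot be told apart if strand was not used.

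Set beside the 1530 lower genes of the table, the 4 differences were in the upper and middle range. A larger fall was measured in 26.7% of the lower genes for Ppara and in 31.2% for Srebf1. For Acaca and Srebf2 the shares were 47.8% and 48.0%, and the median log2 fold change of all lower genes was −1.43.

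The levels per kilobase of merged exon could be compared between the genes. Srebf1 had 2112 ± 1092 normalized counts per kilobase in Mul1(+/+) HFD-liver and 671 ± 340 in Mul1(−/−) HFD-liver (SD, n = 3 each). Ppara followed with 1924 ± 648 and 568 ± 88.6, Srebf2 with 362 ± 133 and 131 ± 39.9, and Acaca with 163 ± 80.6 and 56.5 ± 23.8. Srebf1 was above Ppara in 4 of 6 libraries, so these neighbours did not differ beyond their spread. Ppara was above Srebf2, and Srebf2 above Acaca, in 6 of 6 libraries. The order of the group means was the same in both genotypes. These levels use the merged exon lengths of 5634 bases for Srebf1, 3836 for Ppara, 7184 for Srebf2 and 17074 for Acaca. They would change if a library used a shorter transcript.

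The libraries ranked the genes alike in part. Mul1(+/+) replicate 1 was the highest Mul1(+/+) library for all 4 genes, and Mul1(−/−) replicate 1 the highest Mul1(−/−) library for all 4. Srebf2, Ppara and Acaca were lowest in replicate 2 of both genotypes. Srebf1 departed from this order and was lowest in replicate 3 of both, at 55.4% of the Mul1(+/+) mean in Mul1(+/+) and 19.7% in Mul1(−/−). In Mul1(−/−) replicate 1, which had the largest mitochondrial share, Srebf1 stood at 50.1%, Acaca at 49.8%, Srebf2 at 44.9% and Ppara at 34.8% of the Mul1(+/+) mean. Without that library the log2 fold changes were −2.03 for Srebf1, −1.63 for Srebf2, −1.83 for Ppara and −1.75 for Acaca, each farther from 0 than with it. In Mul1(−/−) replicate 2 all 4 lay between 20.6% and 26.6%. In replicate 3 the range was wider, from 19.7% for Srebf1 to 39.9% for Srebf2.

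**Figure D2:**
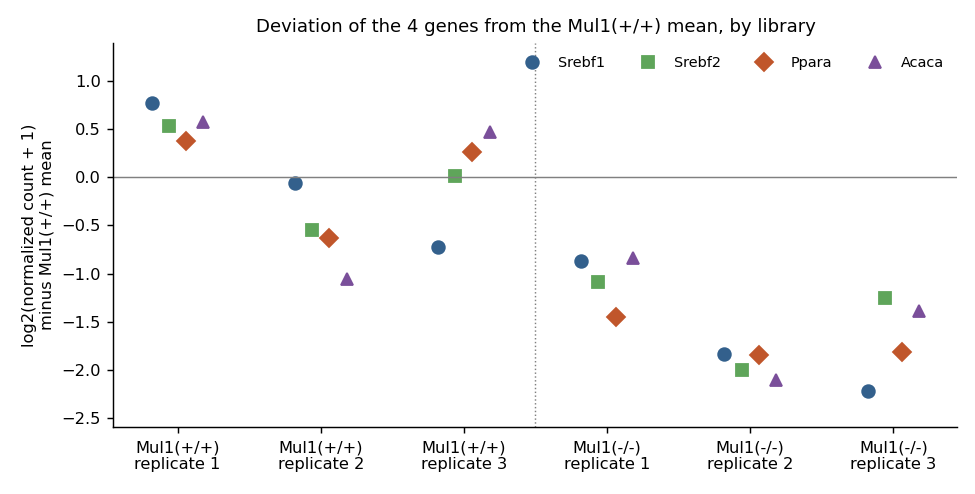
Log2 value of each gene minus its mean log2 value over the Mul1(+/+) libraries (vertical axis), by library (horizontal axis), with the genotypes parted by the dotted line and 1 symbol per gene. Srebf1 lies lowest in replicate 3 of both genotypes, and the other 3 genes lie lowest in replicate 2.

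Whether 1 gene was reduced more than another was asked with ratios within a library, on which the scaling of libraries has almost no effect. The 6 pairs among the 4 genes were compared. No ratio differed between genotypes beyond its spread: the exact two-sided permutation p ranged from 0.4 to 1, the adjusted p was 1 for all 6, and the groups overlapped in all 6. The log2 ratio of Srebf1 to Srebf2, the fatty acid over the cholesterol SREBP, was 2.13 ± 0.65 in Mul1(+/+) and 1.94 ± 0.67 in Mul1(−/−) (SD, n = 3 each). The log2 ratio of Srebf1 to Ppara, the lipogenic over the oxidative regulator, was 0.62 ± 0.85 against 0.69 ± 0.50. Srebf1 to its target Acaca gave 2.13 ± 1.11 against 1.94 ± 0.57. For Ppara to Acaca the values were 1.51 ± 0.36 and 1.25 ± 0.46. These standard deviations are large. The exact permutation test of 3 against 3 libraries cannot give a p below 0.1. It could therefore not pass the adjusted p limit used for single genes, whatever the size of the shift. The p-values of the ratios thus neither show nor exclude a shift, and only the overlap of the groups is described. Srebf2 and Acaca, which encode proteins of different pathways, kept almost the same mean ratio, 0.0041 ± 0.48 against 0.0043 ± 0.21 on the log2 scale.

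Of 23 listed SREBP1 targets of fatty acid synthesis besides Srebf1 and Acaca, 9 were in the table, and all 9 had a lower mean. Of these, 2 were called lower, beside 7.43% of the table, and 0 higher. The median log2 fold change of the 9 was −1.49, beside 1.12 over all 3542 genes. The median was −1.04 over the protein-coding genes of the table and −1.43 over all its lower genes. Scd1, the desaturase that makes oleate, fell from 315901, 145295 and 304171 normalized counts in the Mul1(+/+) replicates to 22412, 18184 and 24664 in the Mul1(−/−) replicates. On the log2 scale Scd1 differed by −3.48 with a standard error of 0.44 (limma, adjusted p 0.00207), and the groups were far apart. Gpam, the first enzyme of glycerolipid synthesis, fell by 2.42 on the log2 scale (adjusted p 0.00889). Acacb, the paralogue of Acaca that encodes the mitochondrial ACC2, had a log2 fold change of −1.54 (adjusted p 0.0359) and overlapping groups. In Mul1(+/+) replicate 2 it stood at 563 normalized counts against 2770 and 2469 in replicates 1 and 3, so the low library of Acaca was also low for Acacb. Acly, which supplies the acetyl-CoA that ACC1 uses, had a log2 fold change of −1.07 (adjusted p 0.0649) with overlap. Fasn, the next enzyme after ACC1, was listed but was not among the 3542 genes.

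Of 18 listed genes of SREBP processing and turnover, Mbtps1 was in the table, the protease that makes the first Golgi cut. Its log2 fold change of −1.36 (adjusted p 0.0180) missed the threshold. Scap, Insig1 and Insig2 were listed but were not among the 3542 genes.

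Of 49 listed PPARα targets besides Ppara, 13 were in the table, of which 12 had a lower and 1 a higher mean, and 0 were called by limma in either direction, beside 7.43% of the table called lower. Of the 13, 10 were lower without overlap of the groups, beside 41.0% of a table already selected for a difference. Among the 1530 genes with a lower mean, 1453 had no overlap, so these targets did not stand out. The median log2 fold change of the 13 was −1.55, beside 1.12 over the table, −1.04 over its protein-coding genes and −1.43 over its lower genes. Cpt1a, which carries fatty acids into mitochondria and is held back by the product of ACC1, had 27662, 16843 and 25033 normalized counts in the Mul1(+/+) replicates. In the Mul1(−/−) replicates it had 8535, 5085 and 13565, without overlap, and its log2 fold change was −1.44 (adjusted p 0.0187 from limma). The gene with the higher mean was Fgf21, a fasting hormone, at 72.5, 186 and 314 normalized counts against 351, 178 and 1665 (log2 fold change 1.53, adjusted p 0.0841). Its groups overlapped, and Mul1(−/−) replicate 3 was far above the rest. Rxra, the partner with which PPARα binds DNA, was the 1 of 20 listed partners and coregulators in the table. It had 35162, 20200.2 and 27856 normalized counts against 10659, 10809 and 7959, without overlap, and its log2 fold change of −1.48 (adjusted p 0.0118) missed the threshold. Pparg and Ppargc1a were listed but were not among the 3542 genes.

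**Figure D3:**
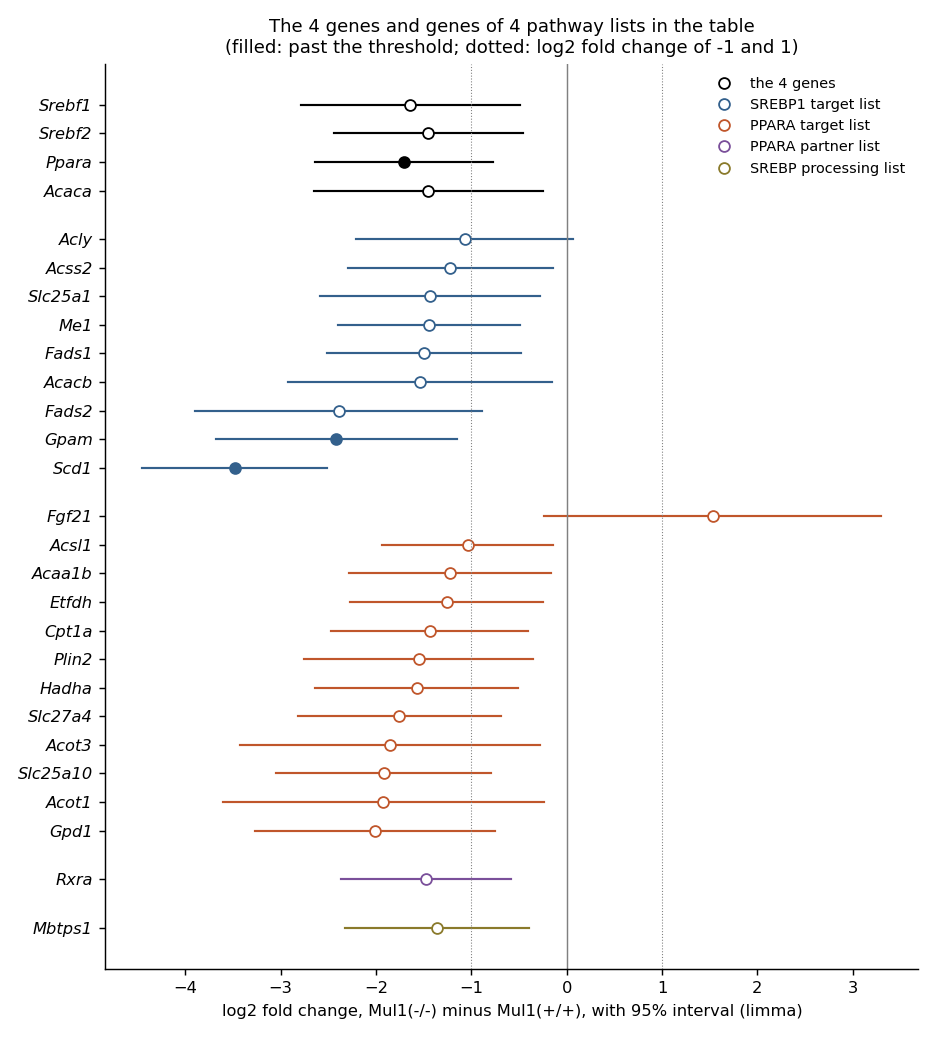
Log2 fold change with its 95% interval from limma (horizontal axis) for the 4 genes and genes of 4 pathway lists that are in the table, 1 row per gene and 1 colour per list. Filled points were called: Ppara, Scd1 and Gpam, while Fgf21 lies on the side of higher values with an interval that includes 0.

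The remaining lists were read the same way. Of 22 listed genes that regulate ACC or use malonyl-CoA, 7 were in the table, 6 with a lower and 1 with a higher mean, and 0 were called by limma. The higher one was Trib3, which is known to promote the loss of ACC protein (log2 fold change 1.45, adjusted p 0.0205). Prkaa1, Prkaa2 and Mlycd were listed but were not among the 3542 genes. Of 29 other lipid regulators, 7 were in the table, 6 lower and 1 higher in mean, and 0 were called. Mlxipl, the glucose-sensing lipogenic factor ChREBP, had 4695, 4469.6 and 5584 normalized counts against 19673, 11400.5 and 4115 (log2 fold change 0.99, adjusted p 0.103), so it was high in Mul1(−/−) replicates 1 and 2 and not in replicate 3. Nr1h3 was listed but was not among the 3542 genes. Of 21 listed genes of insulin and mTORC1 signalling, which raises SREBP1, 7 were in the table. Irs1, the insulin receptor substrate, fell by 1.72 on the log2 scale (adjusted p 0.00965), and Rragd, a nutrient-sensing Rag GTPase, rose by 2.93 (adjusted p 0.00351). Of 20 circadian clock genes, 7 were in the table, 6 lower and 1 higher in mean, and 0 were called. Over these 4 lists the median log2 fold changes were −1.27, −1.14, −1.43 and −1.20. The median was 1.12 over the table, −1.04 over its protein-coding genes and −1.43 over its lower genes.

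The genes nearest to each member were found by the root mean square difference of log2 values, centred on the Mul1(+/+) mean, over the 6 libraries and among 2496 genes with a mean of at least 100. For Ppara these were Lrp6 (0.087), Smc1a (0.089) and Pcnx (0.101). For Srebf2 they were Slc6a6 (0.101), Sgsm2 (0.113) and Irf2bp1 (0.123). Acaca had Atf7 (0.171), Tnrc18 (0.209) and Il6ra (0.229), and Srebf1 had Slc41a2 (0.304), Dopey2 (0.363) and Acot11 (0.370). The closest gene of Srebf1 was thus farther away than the closest gene of any other member. Srebf1 also varied most of the 4 within both groups, and this distance is not scaled by spread. Whether its pattern is less shared was therefore not shown. Between members, the smallest difference was 0.304 for Srebf2 and Acaca, followed by 0.307 for Srebf2 and Ppara, and the largest was 0.732 for Srebf1 and Acaca.

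The share of lower genes moved with transcript length. Among the 2849 protein-coding genes of the table, 51.9% had a lower mean in Mul1(−/−) HFD-liver. These genes were split into 10 classes of about equal size by merged exon length. In the class with the shortest exons the share was 6.32%. It was 55.1% in the class that holds Ppara, 71.6% in that of Srebf1, 63.9% in that of Srebf2 and 69.1% in that of Acaca. The 4 genes therefore lay in classes where most genes of the table were lower, and the part of length in their values was not tested.

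**Figure D4:**
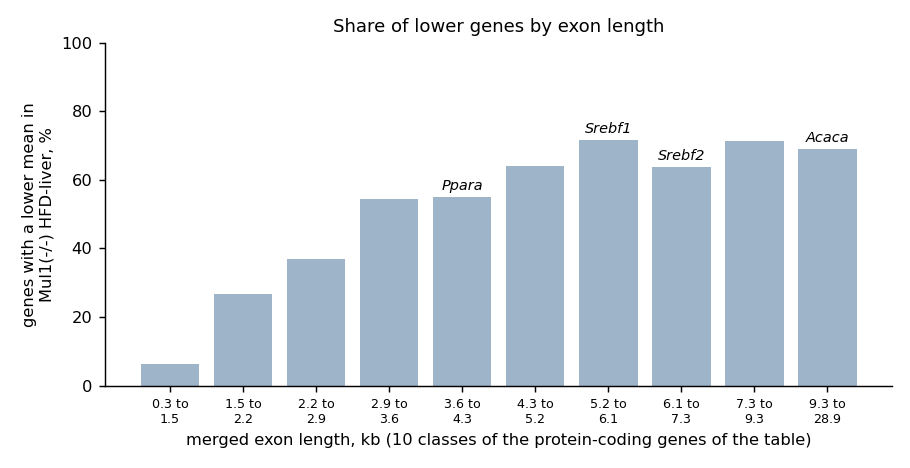
Percentage of protein-coding genes with a lower mean in Mul1(−/−) HFD-liver (vertical axis) in 10 classes of merged exon length in kilobases (horizontal axis), with the 4 genes named above their classes. The share is 6.32% in the shortest class and between 55.1% and 71.6% in the classes that hold the 4 genes.

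Markers of the cell types of the liver were counted in the same way, and 2 bile duct markers and 1 stellate cell marker were called, all higher. Over the table, 591 of 3542 genes were called higher and 2012 had a higher mean. Of 21 hepatocyte markers, 5 were in the table, of which Apob, Hnf4a, Fga and Tat had a lower and Hpx a higher mean, with 0 called. Their summed normalized count ranged from 577229 to 725208 in the Mul1(+/+) libraries and from 480994 to 723001 in the Mul1(−/−) libraries. In this sum Hpx, at 106354 to 238364 against 303066 to 441018, offset falls of the others. Apob, Hnf4a, Fga and Tat stood at 31.7% to 47.3% of their Mul1(+/+) means. All 7 bile duct markers in the table (of 12) had a higher mean, and Epcam and Spp1 were called. Their sum ranged from 1365 to 2047 against 5085 to 5940. All 3 stellate cell markers (of 13) had a higher mean and 1 was called, with sums of 4569 to 5449 against 11472 to 30400. The 3 macrophage markers (of 15) had sums of 2276 to 4060 against 3719 to 11370, and the 3 lymphocyte and neutrophil markers (of 18) had sums of 287 to 563 against 845 to 1572, with 0 called in either list. The 3 endothelial markers (of 12) had sums of 5145 to 5728 against 1875 to 3020, with 0 called. Of 8 adipocyte markers, Lipe was in the table, with 804 to 1048 normalized counts against 294 to 636. No marker of these lists in the table was at 0 in any library. Their part in the lower values of the 4 genes was not tested.

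The log2 fold changes of the 4 genes depended on the scaling of the libraries in size and not in sign. With the libraries rescaled by their median ratio, they were −2.30 for Srebf1, −2.11 for Srebf2, −2.37 for Ppara and −2.11 for Acaca, while the median of the table went from 1.12 to 0.46. The median ratio was taken over genes all selected for a difference, so it may absorb part of that difference. Rescaled by the table's total without the mitochondrial genome, the 4 log2 fold changes were −1.60, −1.41, −1.66 and −1.41, and the median of the table was 1.16. Under the first of these scalings 3 of the 4 genes passed the threshold, and under the second 0 passed, with an adjusted p of 0.0109 for Ppara. At an adjusted p limit of 0.05 all 4 passed, as did 95.4% of the table.

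**Figure D5:**
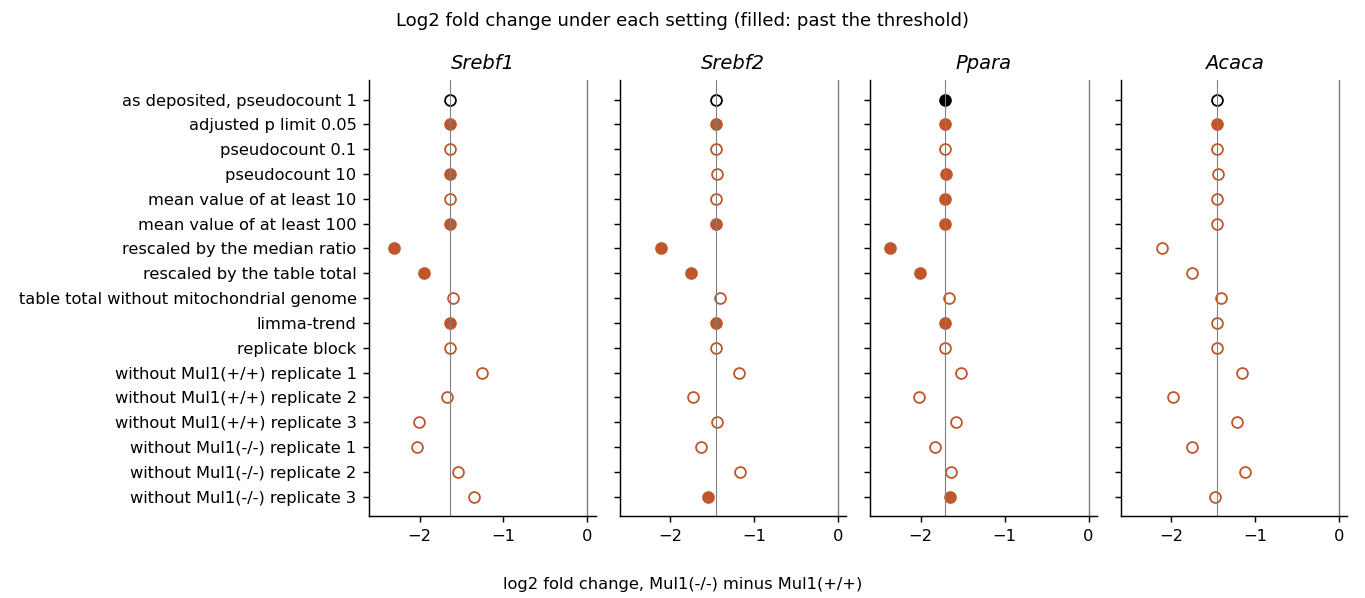
Log2 fold change of each gene (horizontal axis) under each setting of the fit (rows), with filled points where the threshold was passed and a grey line at the value as reported. All points lie below 0, those of Acaca are filled only at the adjusted p limit of 0.05, and most points of Ppara with a library left out are open.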

How the data were processed

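Liver mRNA-seq libraries of Mul1(+/+) and Mul1(−/−) mice on HFD, 3 per genotype, were made and sequenced at GENEWIZ. The authors deposited 1 table of 3542 genes with a normalized read count for each library, made by dividing counts by 1 factor per library. The deposited unit is recorded as other, because values carry separators and a dash for 0. Per the file headers, further columns give log2 fold changes, p-values and adjusted p-values from the authors' DESeq2 comparison. These were used only to see that all 3542 genes lie at or under 0.05 in adjusted p and at or past 1 in absolute log2 fold change. The aligner, counter, genome build and strand setting are not given in the sources used here. All sample columns were matched to a library.

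The values were used as deposited, 1 was added and log2 was taken, with no filter. This scale understates changes of low genes. The groups were compared with limma 3.58.1 (R 4.3.3), with genotype alone and no trend. The fit was run on simulated data in which most genes were unchanged and none had been selected. That run does not cover a table selected for a difference. Single genes and ratios were compared by exact permutation in scipy 1.17.1, with numpy 2.4.6, pandas 2.3.3, matplotlib 3.10.9 and Python 3.11.15. Reads were recovered from the value of 1 read, 0.817 to 1.46 between libraries, of which 100% of values under 10000 were whole multiples within 0.1. The count tests planned for them were not run, since the unit of the table is not a count. Coordinates and lengths are from GENCODE M21 on GRCm38 and promoter windows from RefSeq on GRCm38.p6, and no coordinates of the authors were used.

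The 4 genes and all lists were chosen with earlier results of these data known. The genes named are the 4, Mul1, direct partners, at most the 4 largest changes among called genes of a pathway list, and the 3 genes nearest to each of the 4. Others behind a count of 5 or fewer (Fgf21, Trib3, Mbtps1, the markers), Gm11437 and the overlapping genes were named after their values were seen. Some genes of the lists are not reported here. A list of 5 sex-linked genes had 0 in the table. Alternatives were other p limits, pseudocounts, filters on the mean, scalings, limma-trend, a replicate block and each library left out.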

Additional observations from a re-analysis of the deposited data

How the results depend on the processing

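The direction of all 4 log2 fold changes was the same under all 16 alternatives, and the side of the threshold was not. Ppara passed as reported (−1.71) and missed with a pseudocount of 0.1 (−1.71, adjusted p 0.0131), with the table total without the mitochondrial genome (−1.66, adjusted p 0.0109) and in 5 of 6 fits without 1 library, over which its log2 fold change ranged from −2.02 to −1.52. Srebf1 passed at an adjusted p limit of 0.05, with a mean of at least 100 and with limma-trend (−1.64 each), with a pseudocount of 10 (−1.64), and rescaled by the median ratio (−2.30) or the table total (−1.94). Srebf2 passed at a limit of 0.05, with a mean of at least 100 and with limma-trend (−1.45 each), and rescaled by the median ratio (−2.11) or the table total (−1.75). Without a library, Srebf2 ranged from −1.72 to −1.17 and passed without Mul1(−/−) replicate 3 (−1.54, adjusted p 0.00966). Srebf1 ranged from −2.03 to −1.25 and Acaca from −1.97 to −1.12. Acaca passed at a limit of 0.05 alone (−1.45). The causes were not tested.

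Of the table, 854 genes passed as reported, 88 with a pseudocount of 0.1, 1459 with 10, 1293 with a mean of at least 100, 1343 rescaled by the table total, 1869 with limma-trend, 3380 at a limit of 0.05, and 10 to 2673 without 1 library. Rescaled by the median ratio, 236 passed as higher and 1031 as lower, against 591 and 263 as reported. With the table total the split was 619 and 724, and without the mitochondrial genome 709 and 171.

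The differences of 4 ratios changed sign without single libraries. None reached an adjusted p under 0.6, but the exact permutation test cannot give a small p with so few libraries, whatever the shift. No conclusion is drawn from these p-values. Srebf1 to Srebf2 ranged from −0.56 to 0.19, Srebf1 to Acaca from −0.79 to 0.31, Srebf1 to Ppara from −0.42 to 0.36, and Srebf2 to Acaca from −0.23 to 0.25. The medians of the 9 pathway lists moved down with the median ratio, to between −2.21 and −1.59, and 2 of them moved without 1 Mul1(−/−) library.

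Whether the replicate numbers pair the libraries was not settled. Deviations of same-numbered libraries correlated at 0.022, 0.35 and 0.054 across genes, and not every library correlated best with its own number. Yet each of the 4 genes had the same order of replicates in both genotypes. With 3 libraries a group, such correlations cannot show or exclude a pairing. With the replicate block in limma, 0 genes passed the threshold, although 3314 had an unadjusted p under 0.05, and Ppara had −1.71 (adjusted p 0.0159). The edgeR and DESeq2 fits planned on recovered reads were not run, because the deposited unit is not a count. With 3 libraries a group and a table selected on the same libraries, counts and p-values describe these libraries, and depth (at least 467 reads for each value of the 4 genes) is not the limit.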
